A study of Mus musculus with 11 samples.

Results

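The genes described here encode the machinery that copies DNA. They were chosen by symbol, as subunits of the origin recognition complex, the licensing and helicase complexes, the replicative polymerases, the sliding clamp and its loader, the single-strand binding protein and the enzymes that finish the lagging strand. All 40 symbols matched a gene, out of 54146 genes in each table. The data are RNA-seq profiles of 11 single mouse embryos at the 8-cell stage (E2.5, C57BL/6), collected from intercrosses of *Prdm10*Δ/+ mice. The 5 mutants were *Prdm10*Δ/Δ, and the 6 controls were a mixture of *Prdm10*+/+ and *Prdm10*Δ/+ embryos. Per the study's methods the Δ allele lacks exon 5, and embryos were assigned to a group by qRT-PCR of that exon in their own cDNA. Each library came from 1 whole embryo, so fewer cells and less RNA per cell cannot be told apart. Embryos were isolated and processed in 2 batches. Batch 1 (3 controls, 2 mutants) received 16 cycles of PCR pre-amplification and batch 2 (3 controls, 3 mutants) 13 cycles. Collection, litter and cycle number cannot be told apart from the batch.

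DNA replication is prepared in G1, when the origin recognition complex, CDC6 and CDT1 load the MCM2-7 ring onto DNA in an inactive form, a step called licensing. Geminin binds CDT1 and blocks further loading once S phase has begun. CDC45 and the GINS complex then join the ring to form the active helicase, and polymerase alpha-primase, polymerases delta and epsilon, PCNA and RPA follow at the fork. The early mouse embryo inherits part of this machinery from the oocyte as protein and mRNA. In somatic cells many of these genes are targets of E2F transcription factors, whose binding sites lie near the start of transcription.

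Such sites were searched for in RefSeq promoters (GRCm38.p6, 250 bases before to 50 bases after each start), which held 32 of the 40 genes. The letters TTTCCCGC, TTTCGCGC, TTTGCCGC and TTTGGCGC were sought on both strands. At least 1 match was found for 14 of the 32 symbols (43.8%), against 704 of 27025 symbols in the whole table (2.61%). Among the 5 MCM2-7 genes with an entry, 4 held a match (*Mcm3*, *Mcm5*, *Mcm6* and *Mcm7*) and *Mcm2* did not. CCAAT, searched in the same way, was found for 21 of the 32 (65.6%) against 41.1% of all symbols. Of the genes called higher in batch 1 further on, 9 of 17 with an entry held an E2F match (52.9%). So did 5 of 13 not called between batches (38.5%) and 0 of 2 higher in batch 2, and this was not tested. *Orc3*, also in the origin recognition complex, held a match and is not shown. The stretches shown are from *Orc1*, *Cdc6*, *Cdt1* and the MCM2-7 genes with an E2F match, which act together in licensing and were all called higher in batch 1. They are written 5′ to 3′ on the strand of the gene with the match in capitals, and 1 stretch is shown for each gene.
Mcm5: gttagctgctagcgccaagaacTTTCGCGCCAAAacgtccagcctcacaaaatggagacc
Mcm6: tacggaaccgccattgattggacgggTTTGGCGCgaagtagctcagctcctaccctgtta
Mcm7: atttcgaaccGCGGGAAAcagggtgtcc
Mcm3: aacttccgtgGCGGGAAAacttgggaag
Orc1: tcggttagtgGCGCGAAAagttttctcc
Cdc6: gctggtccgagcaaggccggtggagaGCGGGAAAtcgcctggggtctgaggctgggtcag
Cdt1: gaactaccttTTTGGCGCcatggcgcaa
The *Mcm5* stretch is at chr8:75109334-75109393 (+) and the *Mcm6* stretch at chr1:128359719-128359778 (-), both before the annotated gene. Those of *Mcm7* (chr5:138172031-138172058, -), *Mcm3* (chr1:20820276-20820303, -), *Orc1* (chr4:108579417-108579444, +) and *Cdt1* (chr8:122568037-122568064, +) touch an annotated exon of the gene. The *Cdc6* stretch (chr11:98907987-98908046, +) lies in an intron of a longer annotated transcript. In *Mcm5* 2 matches on opposite strands overlap. Outside the stretches shown, *Mcm6* held 2 further matches that also overlap each other on opposite strands, and *Mcm3* and *Mcm7* held 1 further match each. A match is a string of letters and was not tested for binding.

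Libraries held between 3534735 and 8265840 expected counts, the RSEM estimate of reads per gene. *Prdm10* itself checks the labels only in part, since its counts cover the whole gene. Its TPM (transcript abundance scaled to the same total in each library, a level per length) was 11.1 to 24.8 in controls and 4.88 to 8.16 in mutants, without overlap. Its normalised counts overlapped (DESeq2 adjusted p = 0.215), and its effective length was 2565 to 3357 bases in controls and 4348 to 5051 bases in mutants. All 8 markers of the 8-cell embryo were above 1 TPM in at least 1 library, with *Dppa3* making up most of their sum (5001 to 6326 TPM in controls, 5158 to 6040 in mutants). Single markers moved more than this sum does, *Klf5* between genotypes (80.2 to 123 TPM in controls, 151 to 201 in mutants) and 5 of the 8 between batches, which are given further on. Markers of cumulus or granulosa cells summed to at most 7.83 TPM, and *Has2* and *Foxl2* were listed at 0 in every library. Oocyte markers summed to 32.9 to 112.7 TPM in controls and 40.6 to 77.3 in mutants. Blood and stroma markers summed to 26 to 83.0 and 21.6 to 76.2 TPM, almost all of it *Pecam1*.

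The replication genes were well expressed. Each had a mean normalised count above 10, and their median TPM was 39.6 against 12 over the 10489 genes with a mean that high. Of the 40, 37 lay above that median. *Gmnn*, which encodes geminin, was the most abundant at 437 ± 83.5 TPM (SD, n = 11) and stood above *Orc6* in 11 of 11 embryos. *Orc6* (215 ± 59.3 TPM), *Cdc45* (174 ± 35.1) and *Orc4* (129.6 ± 43.8) came next by the mean. Of the 39 pairs of neighbours in the order, the other 38 exchanged places between embryos, with *Orc6* above *Cdc45* in 8 of 11 and *Cdc45* above *Orc4* in 9 of 11. At the other end stood *Gins2* (4.69 ± 1.23 TPM), *Rpa1* (9.71 ± 6.35) and *Gins3* (11.8 ± 3.95), and their order was that of neither batch. *Gins2* was the lowest gene in batch 1 (4.01 TPM), where *Rpa1* (15.8) was above *Gins3* (13.7), and *Rpa1* was the lowest in batch 2 (4.66, with *Gins2* at 5.26). GINS is a complex of 4 different subunits, yet *Gins1* (107 ± 16.7 TPM) and *Gins4* (83.5 ± 11.4) were far above *Gins2* and *Gins3* at the level of mRNA. In the MCM2-7 ring the highest gene was *Mcm6* (109 ± 46.3 TPM) in both batches. The lowest by the mean was *Mcm4* (26.9 ± 11.5), which was the lowest in batch 1 (35.9), whereas in batch 2 it (19.4) stood above *Mcm5* (15.7). In the origin recognition complex *Orc1*, the subunit that carries the ATPase regulated through the cell cycle, was the lowest in both batches (13.7 ± 5.90 TPM). So was *Cdc6* among the licensing factors (73.6 ± 20.5 TPM). The clamp and clamp loader ran from *Rfc4* (116 ± 29.1 TPM) to *Rfc5* (25.0 ± 11.1), and RPA from *Rpa2* (108 ± 14.8) to *Rpa1*, in either batch. *Prim1* (38.3 ± 10.4 TPM) was the highest gene of polymerase alpha-primase in both batches, and the lowest was *Pola1* in batch 1 (23.3) and *Pola2* in batch 2 (8.16). In the last groups the order turned with the batch. Among polymerases delta and epsilon it ran from *Pold1* (34.2 TPM) to *Pole* (14.0) in batch 1 and from *Pole2* (25.3) to *Pold2* (13.7) in batch 2. *Fen1* was above *Lig1* in batch 1 (26.2 and 19.2 TPM) and below it in batch 2 (12.6 and 16.0). *Pcna* had a related pseudogene, *Pcna-ps2*, that was assigned at most 18.9 expected counts in any library.

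The first comparison asked which of these genes differed between mutant and control embryos. *Cdc6* was higher in mutants. It was the only 1 of the 40 to pass the test (2.5%), where 151 of 10448 genes passed over the whole transcriptome (1.45%). None passed in the other direction. The edgeR quasi-likelihood test called 0 of the 40, with a lowest adjusted p of 0.241, and 35 genes overall (0.334%). It gave 8 of the 40 an unadjusted p under 0.05 (20%, against 9.49% of all genes). In DESeq2, 10 of the 40 had an unadjusted p under 0.05 (25.0%), against 11.9% of all genes. The median log2 fold change of the 40 was 0.04 (mutant minus control, range -0.62 to 0.89), with 22 above and 18 below 0, beside a median of -0.00064 over all genes with a mean above 10.

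*Cdc6* (ENSMUSG00000017499, chr11:98907801-98923940, +) encodes the ATPase that completes MCM loading with the origin recognition complex. In batch 1 its normalised counts were 1044, 897 and 1037 in controls and 1192 and 1324 in mutants. In batch 2 they were 646, 818 and 628 in controls and 1100.3, 1037 and 971 in mutants. Every mutant stood above every control of its own batch, while controls of batch 1 overlapped mutants of batch 2. The log2 fold change was 0.47 ± 0.14 (SE) with an adjusted p of 0.0451 in DESeq2 and 0.241 in edgeR. The call was kept in 1 of the 11 fits that left out an embryo, the fit without control 2, and was lost in the other 10. The fold change was above 0 in all 22 alternative fits (0.35 to 0.57), which draw on the same embryos.

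In normalised counts, mutants and controls did not overlap in either batch, in the same direction, for 3 of the 40 genes (*Cdc6*, *Prim1* and *Lig1*, 7.5%), against 2.74% of all genes. *Prim1* (chr10:128015168-128030037, +), the catalytic subunit of primase, which makes the RNA primers, had counts of 284, 302 and 347 in batch 1 controls and 262 and 259 in mutants. In batch 2 it had 356, 288 and 365 in controls and 161, 191 and 182 in mutants. All 5 mutants lay below all 6 controls, with a log2 fold change of -0.62 ± 0.19 (DESeq2 adjusted p = 0.0611, edgeR 0.255). *Lig1* (chr7:13277283-13311433, +), the ligase that seals Okazaki fragments, had 155, 164 and 99.2 in batch 1 controls and 221 and 176 in mutants. In batch 2 it had 53.0, 99.0 and 103 in controls and 123, 122 and 112 in mutants. Its log2 fold change was 0.51 ± 0.25 (DESeq2 adjusted p = 0.405), and 0.40 with effective length as an offset (DESeq2 adjusted p = 0.501). In TPM the *Lig1* groups overlapped in both batches. Batch 1 had 18.8, 19.7 and 11.7 TPM in controls and 26.8 and 19.3 in mutants. Batch 2 had 11.2, 19.2 and 12.8 TPM in controls and 15.3, 17.0 and 20.5 in mutants. *Lig1* is described because of its values, which had been seen.

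The largest positive differences were those of *Pold2*, *Mcm5* and *Fen1*, none past the threshold. *Pold2* (chr11:5872180-5878292, -), an accessory subunit of polymerase delta, had 153, 149 and 142 normalised counts in batch 1 controls and 220.2 and 141 in mutants. In batch 2 it had 19.1, 40 and 65.9 in controls and 98.1, 79.3 and 148 in mutants, so the groups separated in batch 2 and overlapped in batch 1. Its log2 fold change was 0.89 ± 0.34 (DESeq2 adjusted p = 0.214). *Mcm5* (chr8:75109569-75128439, +) had 729, 644 and 488 in batch 1 controls and 809 and 699 in mutants. Batch 2 gave 124, 169 and 199 in controls and 275, 424 and 332 in mutants, again a separation in batch 2 and an overlap in batch 1. The share of all genes that separate in batch 2 was not counted, so these separations have no background to be read against. The log2 fold change was 0.72 ± 0.22 (DESeq2 adjusted p = 0.0685, edgeR 0.241). For *Fen1* (chr19:10199132-10204169, -), the flap endonuclease that trims Okazaki fragments, the batch 1 counts were 260.0, 280.0 and 158 in controls and 256 and 219 in mutants. The batch 2 counts were 72.1, 78.2 and 107 in controls and 131, 154 and 244 in mutants. Its log2 fold change was 0.59 ± 0.28 (DESeq2 adjusted p = 0.389).

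Besides *Prim1*, the largest negative differences were in the origin recognition complex. *Orc6* (chr8:85299632-85308278, +) had 855, 1241 and 1688 normalised counts in batch 1 controls and 961 and 892 in mutants. In batch 2 it had 1779, 1777 and 1298 in controls and 1009, 963 and 919 in mutants. The 5 mutants lay within a narrow range and below every control but control 4. The log2 fold change was -0.61 ± 0.19 (DESeq2 adjusted p = 0.0621, edgeR 0.241). *Orc4* (chr2:48902824-48950277, -) had 507, 498 and 941 in batch 1 controls and 448 and 741 in mutants. Batch 2 gave 1045, 1136 and 834 in controls and 1079.9, 460.4 and 356 in mutants, with overlap in both batches and a log2 fold change of -0.43 ± 0.29 (DESeq2 adjusted p = 0.611).

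**Figure D1:**
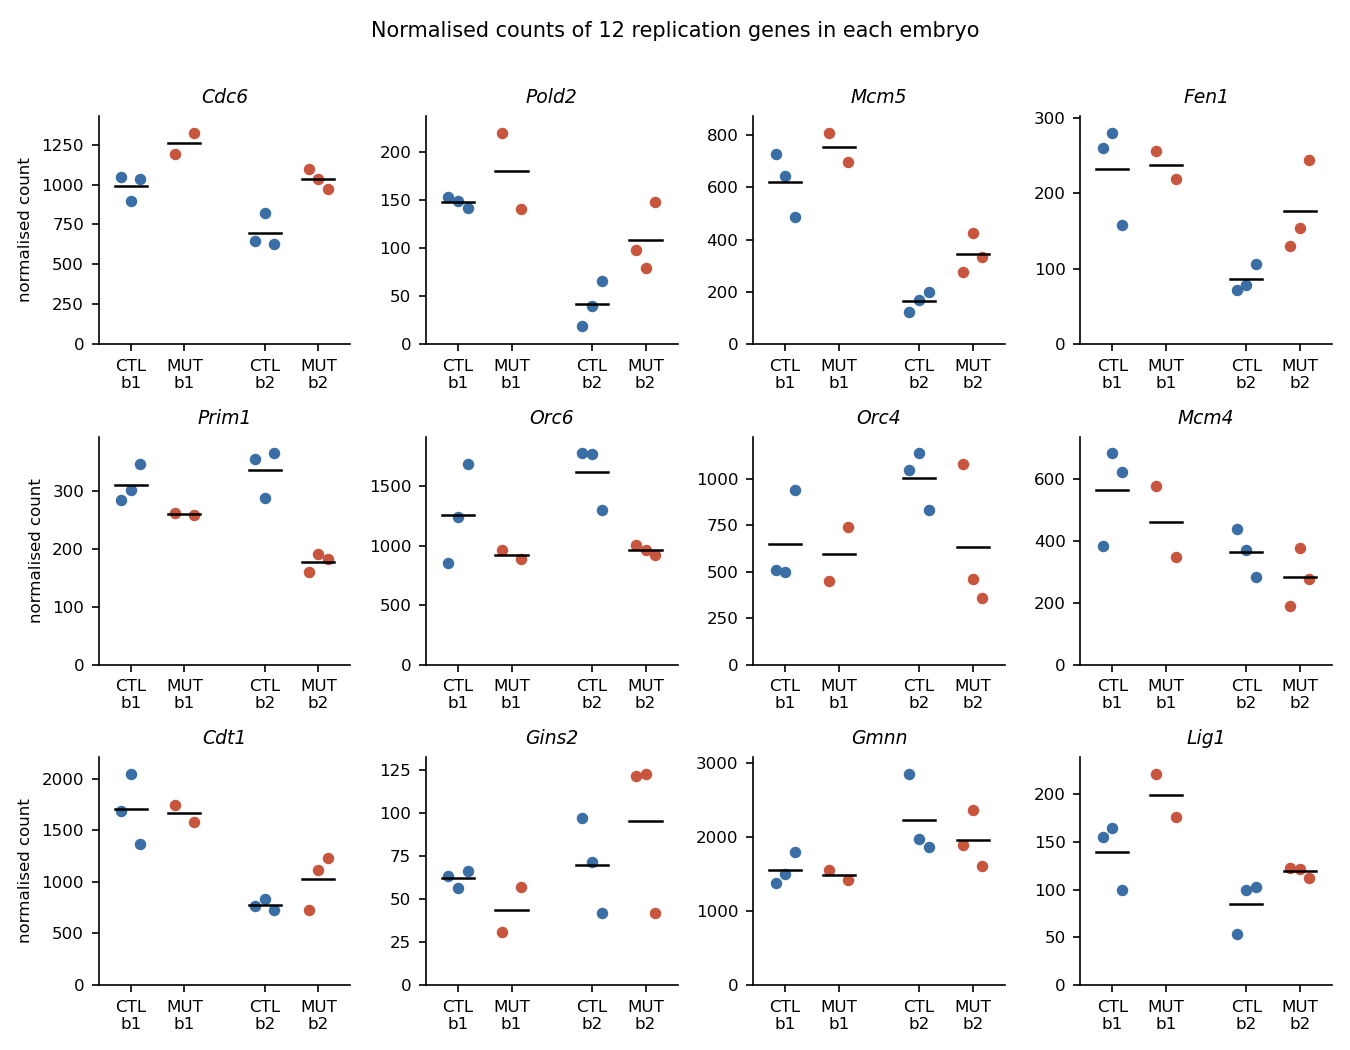
Normalised counts (y axis, from 0) of 12 replication genes in each embryo, with controls (CTL, blue) and mutants (MUT, red) of batch 1 (b1) and batch 2 (b2) in separate columns; points are embryos and black lines are means. *Cdc6* mutants sit above the controls of their batch, *Prim1* mutants below all controls, and *Mcm5*, *Cdt1* and *Fen1* are higher in batch 1 controls than in batch 2 controls.

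Of the 40 genes, *Mcm4*, *Cdt1* and *Gins2* are in the study's list of genes near PRDM10 binding sites in mESCs. None of them passed the test. *Mcm4* (chr16:15623897-15637400, -) had 384, 683 and 622 normalised counts in batch 1 controls and 577 and 347 in mutants, and 437, 372 and 283 in batch 2 controls against 189, 377 and 278 in mutants. The log2 fold change was -0.33 ± 0.24 (DESeq2 adjusted p = 0.640), and it was below 0 in all 22 alternative fits. *Cdt1* (chr8:122568015-122573554, +), the factor that brings the MCM ring to origins, had 1689, 2045 and 1369 in batch 1 controls and 1746 and 1579 in mutants. In batch 2 it had 768, 829 and 725 in controls and 728, 1109.8 and 1228 in mutants, and its log2 fold change was 0.21 ± 0.18 (DESeq2 adjusted p = 0.729). *Gins2* (chr8:120578633-120589304, -) had 63.2, 56.5 and 66.1 in batch 1 controls and 30.7 and 56.9 in mutants, and 96.9, 71.2 and 41.7 in batch 2 controls against 122, 123 and 41.9 in mutants. Mutants were spread on both sides of the controls, and the log2 fold change was 0.04 ± 0.38 (DESeq2 adjusted p = 0.987). *Gmnn*, the most abundant gene, had 1387, 1504 and 1798 in batch 1 controls and 1551 and 1423 in mutants. It had 2857, 1976 and 1869 in batch 2 controls and 1893, 2372 and 1606 in mutants, with a log2 fold change of -0.14 ± 0.17 (DESeq2 adjusted p = 0.836).

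By role, the median log2 fold change between genotypes was 0.21 for the 6 genes of the MCM2-7 ring, -0.07 for the 6 of helicase activation, -0.16 for the 6 of the origin recognition complex and 0.21 for the 3 licensing factors. The 6 clamp and clamp loader genes had a median of -0.03, the 4 of polymerase alpha-primase -0.18, the 4 of polymerases delta and epsilon 0.09, the 3 of RPA 0.04 and the 2 of Okazaki fragment maturation 0.55. The last is the median of *Fen1* and *Lig1*, neither of which passed. These medians moved with the batch. Fitted in batch 1 and batch 2 alone they were -0.01 and 0.44 for the ring, -0.03 and 0.40 for the licensing factors, -0.34 and 0.12 for helicase activation, -0.12 and 0.12 for the clamp and its loader, and -0.21 and 0.28 for RPA, so the sign turned in these 5 groups. The origin recognition complex (-0.16 and -0.08), polymerase alpha-primase (-0.34 and -0.26), polymerases delta and epsilon (0.29 and 0.04) and Okazaki maturation (0.28 and 0.76) kept theirs. *Cdc6* was the gene called in its group, and the other 8 groups had none.

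The difference between batches was much wider than that between genotypes, and it was tested in the same fit. Of the 40 genes 21 passed (52.5%), against 2911 of 10448 genes (27.9%). Of these, 18 were higher in batch 1 (45.0%, against 14.0% of all genes) and 3 in batch 2 (7.5%, against 13.8%). The edgeR test called 17 of the 40 (42.5%, against 22.7% of all genes), and 14 of them were higher in batch 1 (35%, against 10.7%). In 8 of the 40 every batch 1 embryo lay above every batch 2 embryo (20.0%), against 6.50% of all genes. They were *Mcm2*, *Mcm5*, *Mcm6*, *Mcm7*, *Orc5*, *Cdt1*, *Pola2* and *Rpa1*. In *Rfc1* and *Rpa3* every batch 1 embryo lay below every batch 2 embryo, a direction whose share over all genes was not counted.

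All 6 genes of the MCM2-7 ring were higher in batch 1. *Mcm2* had 1106, 1313 and 815 normalised counts in batch 1 controls and 1025 and 973 in mutants, against 323, 374 and 251 in batch 2 controls and 297, 486 and 510.1 in mutants. The lowest batch 1 embryo was above the highest of batch 2, and the log2 difference (batch 1 minus batch 2) was 1.53 ± 0.21 (DESeq2 adjusted p = 6.68e-11). It was 1.57 ± 0.22 for *Mcm5* (1.83e-10), 1.17 ± 0.18 for *Mcm7* (2.77e-09), 0.94 ± 0.17 for *Mcm6* (2.07e-06), 0.88 ± 0.25 for *Mcm3* (0.00371) and 0.67 ± 0.24 for *Mcm4* (0.0282), with DESeq2 adjusted p-values in parentheses. *Mcm4* was the ring gene that edgeR did not call (adjusted p = 0.0510), and its call was lost in 6 of 19 alternative fits. In all 19 alternative fits of the batch term *Mcm2*, *Mcm5*, *Mcm6* and *Mcm7* were called.

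The rise in batch 1 was not general to the machinery. *Cdt1* (log2 difference 0.94 ± 0.18) and *Cdc6* (0.41 ± 0.14) were higher in batch 1, and *Gmnn*, whose product inhibits CDT1, was higher in batch 2 (-0.46 ± 0.17, DESeq2 adjusted p = 0.0286). The *Gmnn* call was kept by edgeR (adjusted p = 0.0341) and lost in limma on the log2(TPM + 1) scale (-0.22, adjusted p = 0.269), on which the median of all genes was itself higher by 0.20 in batch 1. Within helicase activation *Mcm10* rose (0.86 ± 0.18), while *Cdc45* and the 4 GINS genes did not pass. The origin recognition complex had 2 genes higher in batch 1, *Orc1* (0.70 ± 0.27) and *Orc5* (0.80 ± 0.24), of which edgeR called *Orc5* and not *Orc1* (adjusted p = 0.0832). In polymerase alpha-primase *Pola2* was higher in batch 1 (1.43 ± 0.26) and the other 3 did not pass. *Pold1* (1.42 ± 0.39) and *Pold2* (1.34 ± 0.34) were higher in batch 1, and the polymerase epsilon genes *Pole* (-0.45 ± 0.27) and *Pole2* (-0.26 ± 0.21) did not pass. RPA was split, with *Rpa1* higher in batch 1 (1.40 ± 0.26), *Rpa3* higher in batch 2 (-0.73 ± 0.23) and *Rpa2* at -0.05 ± 0.16. The clamp loader was split too, with *Rfc5* higher in batch 1 (0.86 ± 0.26) and *Rfc1*, its largest subunit, higher in batch 2 (-0.70 ± 0.15, DESeq2 adjusted p = 3.76e-05). *Fen1* (0.99 ± 0.28) and *Lig1* (0.73 ± 0.25) were both higher in batch 1. *Pcna*, the clamp, did not pass at -0.10 ± 0.17.

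Of the 21 calls between batches, 13 were kept in all 19 alternative fits and 8 were lost in at least 1. *Orc1* was lost in 8, *Mcm4*, *Gmnn* and *Lig1* in 6 each and *Cdc6* in 5. Among the DESeq2 fits that left out an embryo, *Orc1* was lost without control 1, 2, 4, 5 or 6 or mutant 2 or 4 (highest adjusted p 0.122), and *Mcm4* without control 3, 5 or 6 or mutant 1 or 4 (0.151). *Gmnn* was lost without control 1, 4 or 5 or mutant 2 or 5 (0.0876), *Cdc6* without control 3, 4 or 6 or mutant 5 (0.0686) and *Lig1* without control 4 or 5 or mutant 4 (0.0825). *Mcm4*, *Orc1*, *Cdc6* and *Lig1* are the 4 that edgeR did not call. Of the remaining 3, *Pold1* was lost in limma on log2(TPM + 1) (adjusted p = 0.0682) and with the effective-length offset, *Mcm3* with that offset alone, and *Rpa3* in limma alone (adjusted p = 0.0570).

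**Figure D2:**
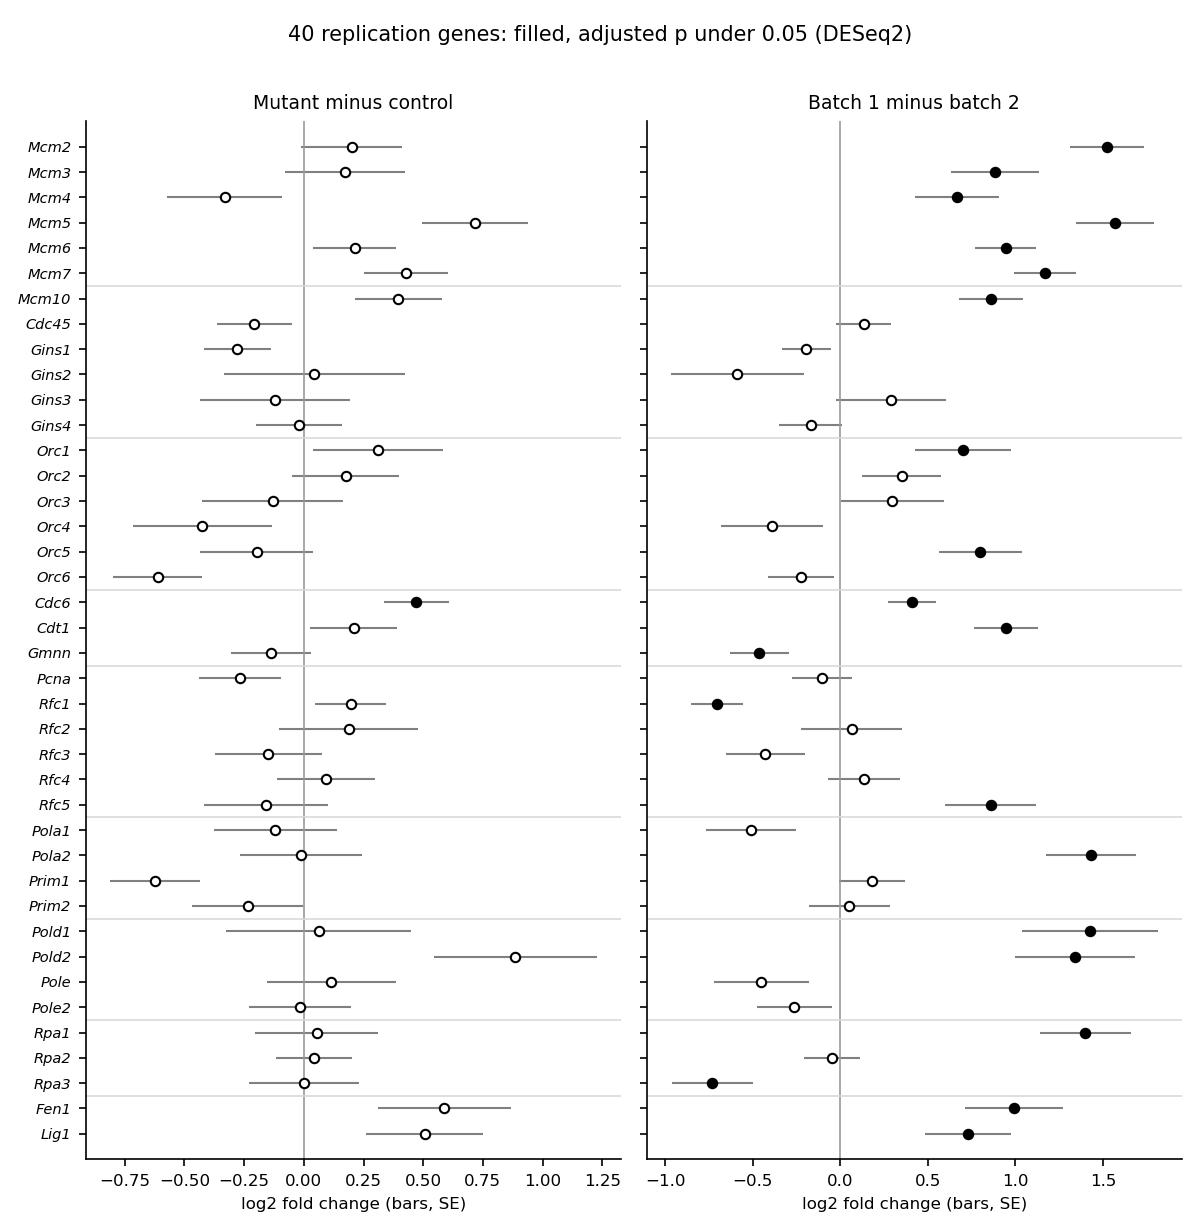
Log2 fold changes (x axis, bars are SE) of the 40 replication genes, mutant minus control on the left and batch 1 minus batch 2 on the right, from the DESeq2 fit; filled points had an adjusted p under 0.05 and grey lines divide the groups by role. *Cdc6* is the filled point on the left, and all 6 MCM2-7 genes are filled on the right.

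Markers of the 8-cell embryo itself moved with the batch, 4 of the 8 higher in batch 1 and *Dppa3* higher in batch 2. *Tfap2c* had 75.4 to 131 TPM in batch 1 and 34.4 to 61.3 in batch 2, without overlap (log2 difference 0.94 ± 0.16, DESeq2 adjusted p = 1.07e-07). *Pou5f1*, the pluripotency factor OCT4, had 106 to 486 TPM and 34.2 to 144 (1.53 ± 0.31, DESeq2 adjusted p = 1.38e-05), and *Tead4* 86.0 to 161 and 42.2 to 89.0 (0.76 ± 0.19, DESeq2 adjusted p = 0.000947), both with overlap. *Nanog* passed in DESeq2 (adjusted p = 0.0412) and not in edgeR (0.0734). *Klf5* and *Gata6* did not pass, and *Cdx2* was at 1.3 TPM or less in every library. Of the 5 oocyte markers *Oosp1* was called, higher in batch 2 (2.89 to 6.24 TPM in batch 1, 2.28 to 48.3 in batch 2, DESeq2 adjusted p = 0.000132, edgeR 0.00679), and the sum of the list was 42.3 to 64.5 TPM in batch 1 and 32.9 to 112.7 in batch 2. Of the 5 oviduct markers 1 was called, *Ovgp1*, while *Epcam* (DESeq2 adjusted p = 0.164) and *Krt7* (0.281) did not pass and *Pax8* and *Foxj1* were near 0. The summed TPM of the oviduct list was 32.5 to 44.9 in batch 1 and 46.9 to 74.3 in batch 2, of which *Epcam*, also an embryo gene, made up the larger share in most libraries. *Ovgp1*, the oviductal glycoprotein, was at 0 to 0.81 TPM in batch 1 and at 1.45 to 30.1 in batch 2 (DESeq2 adjusted p = 5.47e-06), and 4 of the 5 oviduct markers exceeded 1 TPM in some library. The part of these lists in the batch difference of the replication genes was not tested.

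Summed over the subunits, the MCM2-7 ring had 514 ± 52.2 TPM in batch 1 (SD, n = 5) and 229.6 ± 44.0 in batch 2 (n = 6), a ratio of 2.24. The batches did not overlap, at 427 to 566 and 178 to 289 TPM. For Okazaki maturation the ratio was 1.59 and for polymerases delta and epsilon 1.37, while the other 6 groups stood between 1.06 and 1.33. On the log2(TPM + 1) scale the median gene was itself higher by 0.20 in batch 1, so these ratios are read relative to that shift. Between genotypes the ring summed to 355 ± 178 TPM in controls and 364 ± 144 in mutants. Within batches the batch 1 mean was 510.2 for controls and 519 for mutants, and the batch 2 mean 199 and 260.4. Polymerase alpha-primase summed to 130.4 and 109.8 TPM in batch 1 controls and mutants, and to 106 and 77.0 in those of batch 2. The origin recognition complex had 507 and 421 TPM in batch 1 and 517 and 361 in batch 2. Its groups overlapped in both batches. Controls had 413 to 614 TPM and mutants 420 to 421 in batch 1, and 431 to 593 and 308 to 456 in batch 2. Of its 6 genes, 4 had a log2 fold change below 0 and 2 above it. No test was made of a sum.

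**Figure D3:**
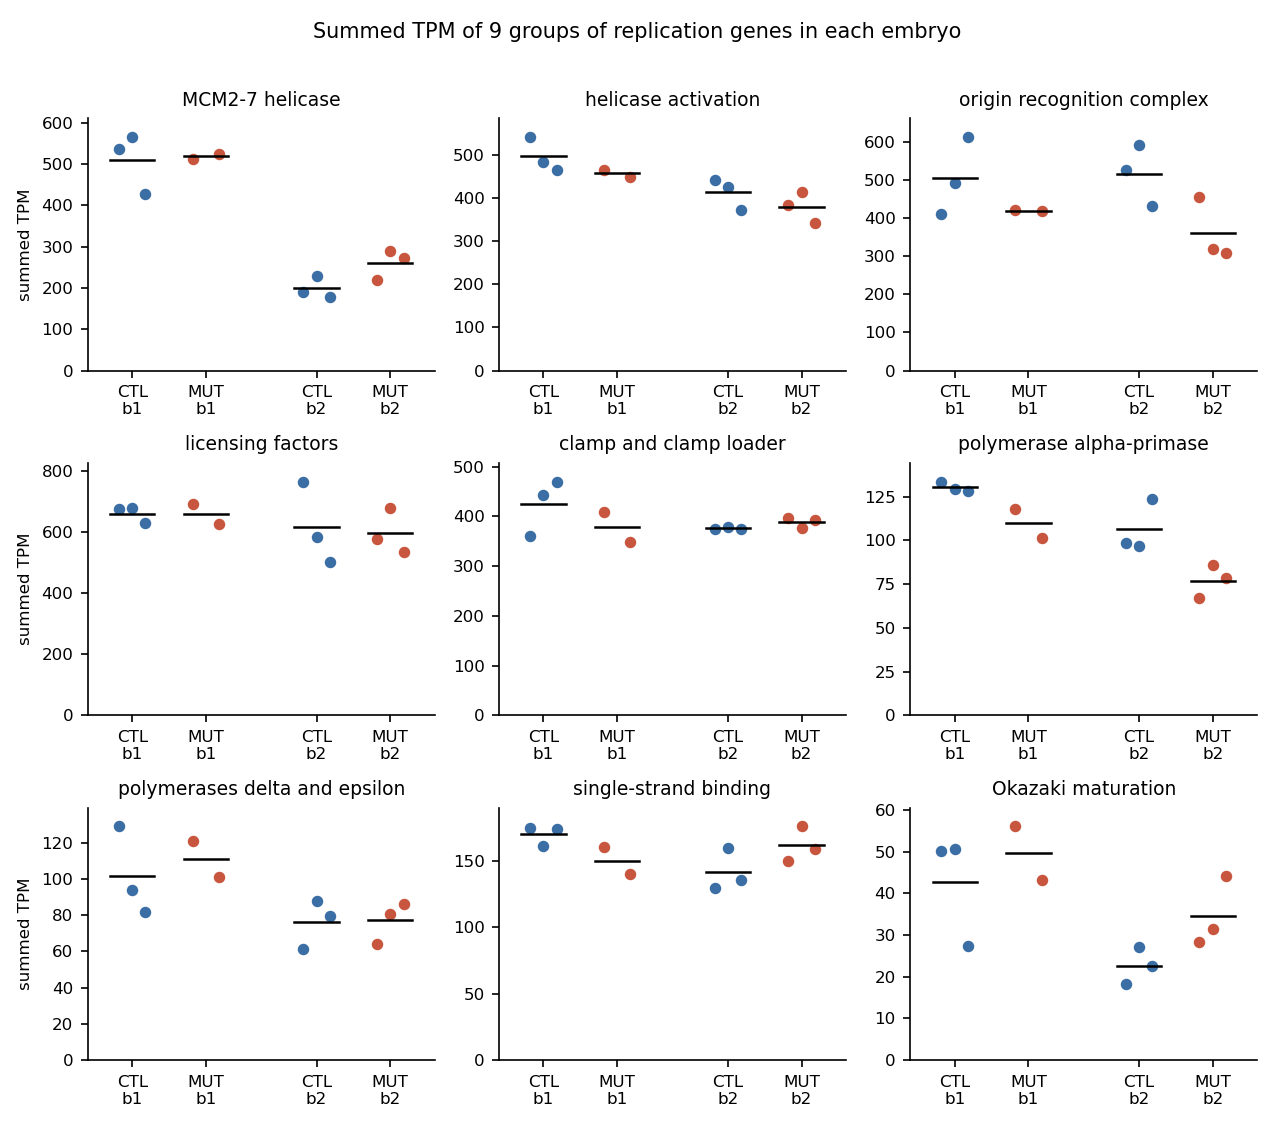
Summed TPM (y axis, from 0) of the 9 groups of replication genes in each embryo, with controls (CTL, blue) and mutants (MUT, red) of batch 1 (b1) and batch 2 (b2); points are embryos and black lines are means. The MCM2-7 ring sits at 427 to 566 TPM in batch 1 and 178 to 289 in batch 2.

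No gene of the 40 passed the test of a batch by group interaction, which asks whether the genotype difference differed between batches. Over all genes 4 passed in DESeq2 (0.0382%). At an unadjusted p under 0.05 there were 3 of the 40 in DESeq2 (7.5%, against 4.30% of all genes) and 2 in edgeR (5%, against 3.23%), which also called 0. The estimated genotype difference was more positive in batch 2 than in batch 1 for 26 of the 40 (65%), against 51.0% of all genes.

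Effective length, the RSEM estimate of the usable length of the transcripts present, also differed for some genes. The batches did not overlap, with means over 1.1 times apart, for 3 of the 40 (*Mcm3*, *Rfc1* and *Lig1*, 7.5%), against 2.88% of all genes. All 3 were longer in batch 1, against 1.53% of all genes. This rule was set after the values had been seen. *Mcm3* had 1716 to 2053 bases in batch 1 and 1188 to 1573 in batch 2, where its annotation holds a protein-coding transcript of 3031 bases and 4 retained-intron transcripts. *Rfc1* had 2868 to 3755 bases in batch 1 and 1975 to 2571 in batch 2, and *Lig1* 1808 to 2087 and 959 to 1636. On the log2(TPM + 1) scale, whose median shift was given above, the batch difference was 0.27 for *Lig1* (limma adjusted p = 0.420) and -0.96 for *Rfc1* (limma adjusted p = 0.00163). With effective length as an offset *Lig1* did not pass (DESeq2 adjusted p = 0.859) and *Rfc1* did.

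Between genotypes no gene of the 40 separated by that rule, against 0.257% of all genes. *Mcm4* is described because of its values. Its effective length was 3515 bases in all 5 mutants and in control 2, and 2871 to 3406 bases in the other 5 controls, and its annotation holds a full-length transcript of 3589 bases and 2 short coding ones of 423 and 658 bases.

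**Figure D4:**
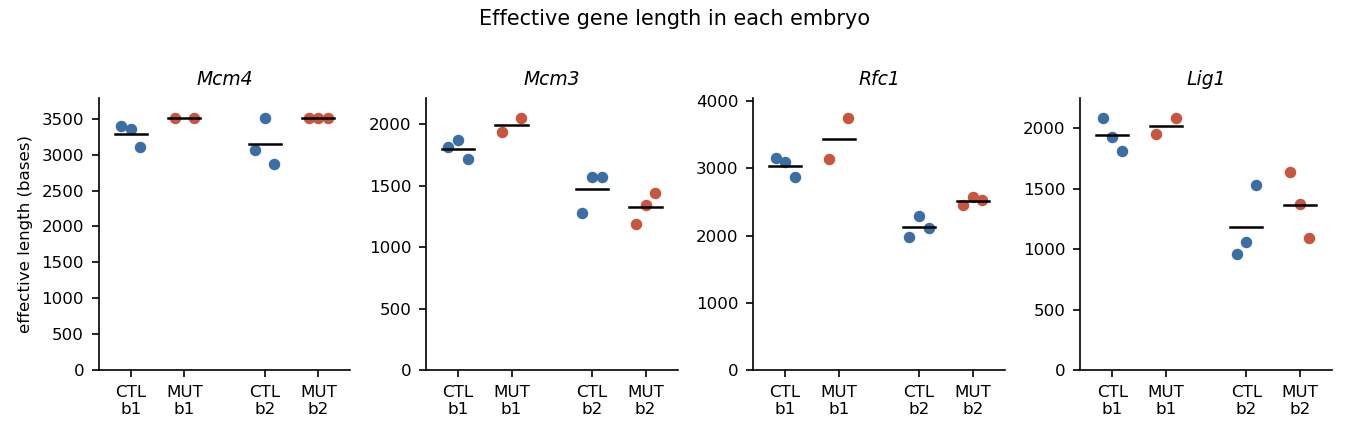
Effective gene length in bases (y axis, from 0) of *Mcm4*, *Mcm3*, *Rfc1* and *Lig1* in each embryo, with controls (CTL, blue) and mutants (MUT, red) of batch 1 (b1) and batch 2 (b2); points are embryos and black lines are means. *Mcm4* is at 3515 bases in all 5 mutants, and the other 3 genes are longer in batch 1.

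Among 75 further genes of the pathway, 70 had a mean normalised count above 10. DESeq2 called 1 higher and 1 lower in mutants, so 2 of 70 against 1.45% of all genes, and edgeR called 0, against 0.334%. *Mcm8*, an MCM-like helicase subunit with a known role in homologous recombination, had 64.0, 74.0 and 89.3 in batch 1 controls and 109.6 and 88.0 in mutants, and 37.3, 38.2 and 36.8 in batch 2 controls against 111, 114 and 111 in mutants. Mutants and controls separated widely in batch 2, for which no share over all genes was counted, and overlapped in batch 1. The log2 fold change was 1.04 ± 0.29 (DESeq2 adjusted p = 0.0320, edgeR 0.241). The call was lost in 9 of the 11 fits that left out an embryo (adjusted p up to 0.138) and kept without control 6 or mutant 5. With effective length as an offset it was 0.66 (DESeq2 adjusted p = 0.247). *Dut*, the dUTPase that keeps uracil out of DNA, had 349, 443 and 409 in batch 1 controls and 260.1 and 261 in mutants. In batch 2 it had 575, 667 and 537 in controls and 475, 311 and 344 in mutants, below the controls in both batches. Its log2 fold change was -0.64 ± 0.17 (DESeq2 adjusted p = 0.0208, edgeR 0.188), and it is in the list of genes near PRDM10 binding sites. The call was lost in 7 of those 11 fits, without control 2, 5 or 6 or mutant 2, 3, 4 or 5 (adjusted p up to 0.110). *Timeless* (-0.09 ± 0.27), *Rnaseh2a* (-0.02 ± 0.20) and *Ssrp1* (0.16 ± 0.18) are in that list too and did not pass. By list, 1 of 32 measured initiation and fork genes and 1 of 11 nucleotide supply genes passed, and none of 8 chromatin assembly genes, 9 E2F and RB family genes or 10 replication checkpoint genes.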

How the data were processed

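Single-embryo Smart-seq2 libraries of 6 control and 5 mutant embryos were analysed, with groups and batches taken from the labels. Per the submitters' processing notes and the study's methods, the authors mapped single-end reads to GRCm38.p6 with STAR (version 2.6.0c) and estimated gene abundance with RSEM on GENCODE models. The deposited tables give the RSEM expected count, in which reads shared between genes are divided, the TPM and the effective length (a score in bases, as deposited). The authors' deposited comparison table holds fold changes and p-values from DESeq2 (version 1.22.2) and was not used. Without molecular identifiers, PCR copies were counted separately. Symbols and coordinates were read from GENCODE vM21, which uses this build.

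Expected counts were rounded. Differences were tested by DESeq2 (version 1.42.0, R version 4.3.3) with the Wald statistic, modelling batch and group over all genes without shrinkage. A gene was called when its baseMean (the mean of its normalised counts) exceeded 10 and its Benjamini-Hochberg adjusted p was under 0.05. Independent filtering was set to 0.05, the call threshold. The design had not fixed this setting, and the count with the default of 0.1 (144 genes called, against 151) had been seen before 0.05 was kept. edgeR (version 4.0.16) and limma (version 3.58.1, log2(TPM + 1)) were alternatives. The tests were checked on simulated data, where more of the genotype calls of DESeq2 were false than its threshold allows, and edgeR and limma exceeded it by less. For the batch term, the correlation of fitted with true differences missed the limit first set over all genes, and the check was then limited to a baseMean above 100, which leaves out *Gins2*. No pair of libraries of a group agreed within counting noise (at least 16.6 times its variance). This finds only a library deposited in duplicate, since repeat libraries of 1 embryo would also exceed it, and separate embryos are taken from the labels.

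Members and lists were chosen with earlier results of these data known. Embryo values are given for genes called, in the list of bound genes, with the 3 largest rises or falls, or highest or lowest by TPM. *Lig1*, the effective-length rule and the motifs were chosen after values were seen. The promoters were also searched for parts of the study's gel-shift probe while motifs were being chosen, and that search is not reported.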

Additional observations from a re-analysis of the deposited data

How the results depend on the processing

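Under every alternative run, the 4 genes near the threshold kept their direction between genotypes, *Cdc6* and *Mcm5* higher and *Orc6* and *Prim1* lower in mutants. The number of replication genes called between genotypes was 1, and 0 with edgeR, with limma on log2(TPM + 1), without a batch term, in batch 1 alone and in batch 2 alone. It was 4 with a baseMean above 100 (*Cdc6*, *Mcm5*, *Orc6* and *Prim1*), where fewer genes were tested, and 0 to 3 when embryos were left out in turn. The 3 came without control 4 and were *Mcm5*, *Orc6* and *Prim1*. With independent filtering at 0.1, added after the data were seen, the counts among the 40 genes (1 between genotypes, 21 between batches, 0 for the interaction) and the pathway genes (2) were the same. For the pathway genes the count of 2 became 0 with edgeR, limma, no batch term and each batch alone, 1 with a baseMean above 100 and with the effective-length offset, and 0 to 2 without single embryos. The batch count of 21 stayed between 17 and 21 in all alternatives, and the interaction count at 0. The median log2 fold change of the 40 genes, 0.04, was -0.11 in batch 1 alone and 0.22 in batch 2 alone, and between -0.038 (without mutant 2) and 0.089 (without mutant 5) when embryos were left out. The summed TPM of RPA differed between genotypes by 0.01 (log2), by -0.18 in batch 1 alone and by 0.20 in batch 2 alone. The causes were not tested. Over single genes, 814 of the alternative values moved by less than their error or kept the call, and 44 moved further. A call was lost in 15 (all *Cdc6*) and gained in 6, and no call was reversed. Estimates without a call did change sign, as in *Gins3* (-0.88 to 0.46) and *Pola2* (-0.43 to 0.35). No paired analysis was possible because replicate numbers were given in accession order and pair no embryos. With 2 mutants in batch 1, values within that batch rest on few embryos.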
